A study of Homo sapiens with 9 samples.

Results

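TGFBI, PMEPA1, CCN1, CCN2, ID1, ID2, ID3, SMAD7 and JUNB are 9 genes known as transcriptional targets of TGF-beta, BMP or the coactivator YAP, and they are described here in 3 isogenic lines of H3122, a human lung adenocarcinoma cell line. They were taken as every array probe annotated to one of these symbols, with CYR61 read as CCN1 and CTGF as CCN2, which gave 16 probes for 9 of the 20046 genes named on the array. The genes were chosen by their log2 differences between these lines on the same arrays, so those differences are given as a description, without p-values, and counts of these genes past a threshold test nothing. Total RNA of 9 samples was read on Illumina bead arrays, 3 arrays for each line. X376R cells had been made resistant to X-376 and PF1066R cells to crizotinib, which the labels also call PF1066. The labels name both drugs as inhibitors of the ALK kinase. Parental cells are sensitive to both drugs. All 3 lines carry the EML4-ALK fusion (E13;A20), per the labels. There is 1 resistant line for each drug, and resistance to a drug and other traits of its line cannot be told apart. The sources used here do not say whether inhibitor was present at lysis. The labels do not mention separate cultures for the 3 samples within a line, and the p-values for other genes then rest on a spread that may be technical.

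TGF-beta and activins act through receptor kinases that phosphorylate SMAD2 and SMAD3, and BMPs through receptors that phosphorylate SMAD1, SMAD5 and SMAD9. Both groups of SMADs enter the nucleus with SMAD4 and bind DNA there. YAP and its relative TAZ (gene WWTR1) are held in the cytoplasm by the kinases of the Hippo pathway and act in the nucleus on TEAD factors. In epithelial tumours these pathways are known for their part in matrix production, cell shape, epithelial-mesenchymal transition and growth arrest, and signalling through AP-1 factors often joins them at the same genes.

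The promoters of the genes are shown because SMAD, TEAD and AP-1 factors bind DNA through short motifs that can be read in the sequence. RefSeq promoters (GRCh38.p14) were found for 8 of the 9 genes in 13 windows, with 4 alternative starts for PMEPA1 and 3 for SMAD7, and no sequence of CCN1 is given here. Each window holds the 250 bases before the start of transcription. The motifs searched on both strands were the SMAD palindrome GTCTAGAC, the shorter SMAD motif CAGAC, the GC-rich SMAD motif GGCGCC, the TEAD motif GGAATG and the AP-1 motif TGANTCA. Capitals mark the letters that match a motif, and the 4 windows shown belong to the gene with the TEAD letters, to a TGF-beta target and a BMP target with large differences between lines, and to a BMP target without any of these letters:
CCN2, chr6:131951373-131951622, minus strand: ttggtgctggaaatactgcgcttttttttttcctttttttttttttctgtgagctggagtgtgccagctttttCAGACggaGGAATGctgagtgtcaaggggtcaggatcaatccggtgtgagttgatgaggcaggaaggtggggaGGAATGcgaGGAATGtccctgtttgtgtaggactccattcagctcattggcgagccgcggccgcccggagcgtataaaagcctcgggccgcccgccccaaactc
TGFBI, chr5:136028738-136028987, plus strand: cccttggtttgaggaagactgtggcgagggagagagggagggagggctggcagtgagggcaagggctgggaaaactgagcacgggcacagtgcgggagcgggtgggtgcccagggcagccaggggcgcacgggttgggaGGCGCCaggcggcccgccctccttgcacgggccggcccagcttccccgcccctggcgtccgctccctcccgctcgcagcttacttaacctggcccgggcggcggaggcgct
ID3, chr1:23559502-23559751, minus strand: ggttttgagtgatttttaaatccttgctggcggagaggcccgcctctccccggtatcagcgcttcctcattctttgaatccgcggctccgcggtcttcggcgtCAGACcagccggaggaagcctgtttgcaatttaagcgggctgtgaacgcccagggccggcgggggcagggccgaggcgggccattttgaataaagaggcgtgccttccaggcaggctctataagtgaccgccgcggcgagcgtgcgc
ID1, chr20:31605039-31605288, plus strand: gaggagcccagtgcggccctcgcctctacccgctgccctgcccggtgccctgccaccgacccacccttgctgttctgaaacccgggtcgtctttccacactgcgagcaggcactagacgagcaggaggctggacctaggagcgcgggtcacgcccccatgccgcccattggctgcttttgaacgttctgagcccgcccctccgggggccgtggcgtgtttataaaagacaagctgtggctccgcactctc

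CCN2 was the only gene of the 8 whose windows held GGAATG, and it held the motif 3 times, at bases -169 to -164, -104 to -99 and -95 to -90 from the start. At least 1 GGAATG was found in 11.9% of all 35116 promoter windows in the table, and 3 or more in 0.0826%. CCN2 also held CAGAC at -177 to -173. CAGAC was present in 6 of the 13 windows (46.2%), which belong to PMEPA1, CCN2, ID3 and SMAD7, and in 38.0% of all windows. GGCGCC was in 2 of the 13 (15.4%), of TGFBI and PMEPA1, and in 16.4% of all windows. GTCTAGAC (0.182% of all windows) and TGANTCA (6.57%) were in none of the 8 genes. These matches describe the letters near the start of transcription, and binding was not measured.

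All 9 genes were read above background on all 9 arrays by the probe with the highest mean, which stands for the gene below. Values are log2 of the background-corrected and quantile-normalized signal, and a difference of 1 on this scale is a doubling. Levels of different probes are not comparable. In X376R compared with Parental, 7 of the 9 passed limma's adjusted p of 0.05 as higher, 1 (JUNB) as lower and 1 (SMAD7) did not pass; of the 13769 genes tested 28% passed, 13.9% as higher and 14.2% as lower. In PF1066R compared with Parental, 0 passed as higher, 6 as lower and 3 did not pass, beside 18.5% of all genes, 9.09% as higher and 9.37% as lower. All 9 passed as higher in X376R compared with PF1066R, beside 16% of all genes in either direction and 7.92% as higher. The median difference over the 9 genes was 1.10 for X376R minus Parental, -0.49 for PF1066R minus Parental and 2.54 for X376R minus PF1066R, and over all genes tested it was -0.01, -0.01 and -0.00. Both resistant lines were set against the same 3 Parental arrays.

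**Figure D1:**
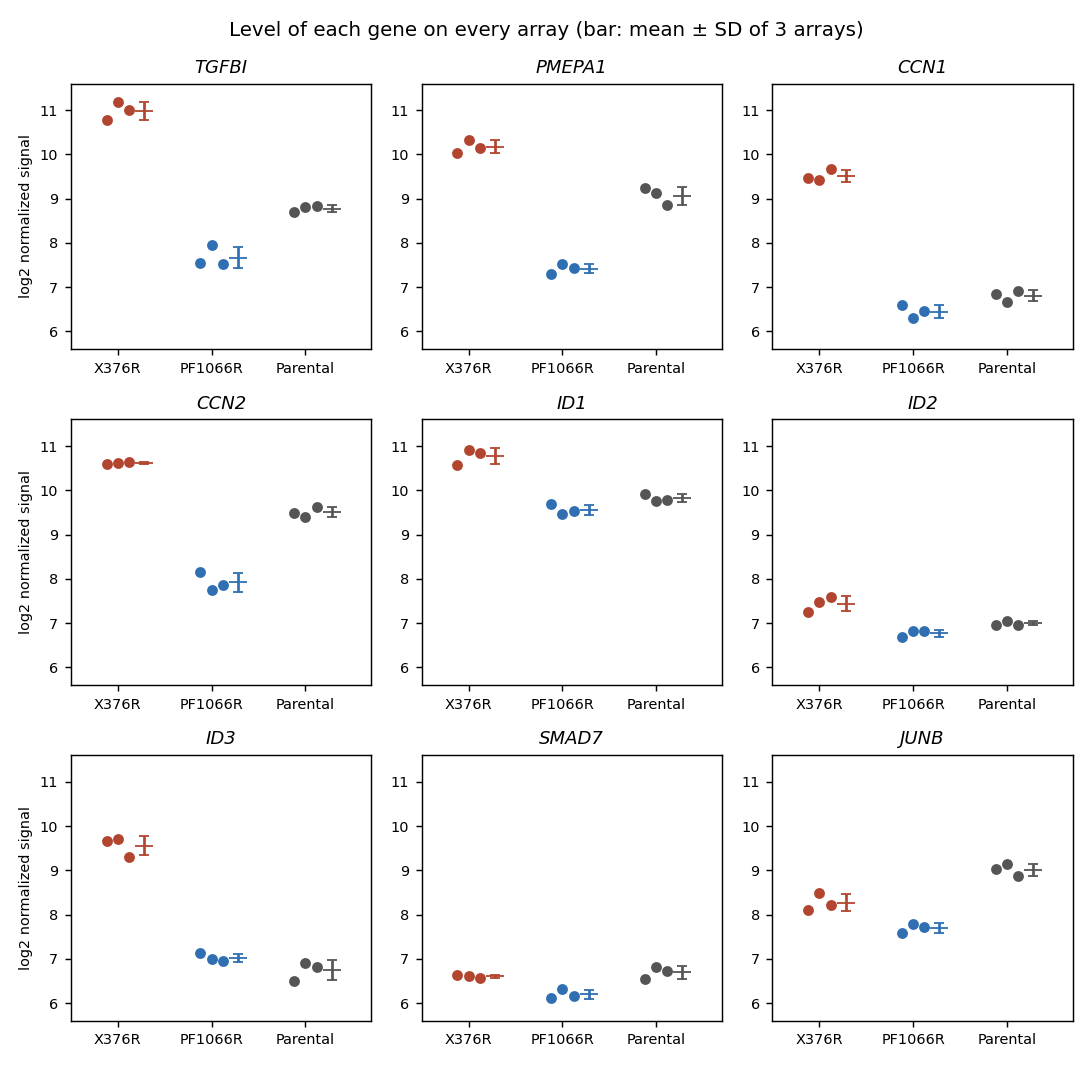
Level of each of the 9 genes on every array, as log2 normalized signal on the y axis, for X376R, PF1066R and Parental (3 arrays each). Points are arrays and the bar beside them is the mean ± SD; for TGFBI, PMEPA1, CCN1, CCN2, ID1 and ID2 the X376R arrays lie above and the PF1066R arrays below the Parental arrays.

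TGFBI encodes a secreted matrix protein that binds integrins and was named for its induction by TGF-beta; the gene lies at chr5:136028988-136063818 (GRCh38.p14). It measured 10.77, 11.18 and 11.02 on the X376R arrays, 7.54, 7.95 and 7.51 on the PF1066R arrays and 8.69, 8.82 and 8.83 on the Parental arrays. The 3 lines did not overlap, with X376R highest and PF1066R lowest. TGFBI was 4.62-fold higher in X376R than in Parental (log2 difference 2.21 ± 0.13, SE, n = 3 arrays a line here and below) and 2.16-fold lower in PF1066R than in Parental (-1.11 ± 0.13). Between the resistant lines the gap was 9.97-fold (3.32 ± 0.13), which ranked 4 from the highest of the 13769 genes.

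PMEPA1, at chr20:57648396-57711472, encodes a membrane protein that is induced by TGF-beta and in turn keeps receptor-activated SMADs from the receptor. It measured 10.04, 10.33 and 10.15 in X376R, 7.31, 7.52 and 7.43 in PF1066R and 9.24, 9.12 and 8.85 in Parental. Again X376R was highest and PF1066R lowest with no overlap. The log2 difference was 1.10 ± 0.12 for X376R minus Parental and -1.65 ± 0.12 for PF1066R minus Parental, in which PMEPA1 was 3.14-fold lower. X376R exceeded PF1066R 6.74-fold (2.75 ± 0.12). A second PMEPA1 probe gave 0.96, -1.64 and 2.60 for these 3 differences, and another, which was below background on all PF1066R arrays, gave 0.49, -0.63 and 1.13. The remaining probe was not above background on enough arrays to be tested. With each array only centred on its median, the X376R minus Parental difference of PMEPA1 was 0.46.

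CCN1 and CCN2 encode secreted matricellular proteins that bind integrins and are widely used readouts of YAP and TEAD activity; CCN2 is also induced by TGF-beta. CCN1, at chr1:85580761-85583950, measured 9.46, 9.41 and 9.68 in X376R, 6.59, 6.31 and 6.45 in PF1066R and 6.84, 6.67 and 6.92 in Parental. The X376R arrays stood far above the others, while the PF1066R arrays lay just below the Parental arrays. CCN1 was 6.53-fold higher in X376R than in Parental (2.71 ± 0.12) and 1.28-fold lower in PF1066R than in Parental (-0.36 ± 0.12). The second of these differences lay between -0.55 and -0.21 under the other ways of processing the arrays. X376R exceeded PF1066R in CCN1 8.38-fold (3.07 ± 0.12).

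CCN2, at chr6:131948176-131951372, measured 10.58, 10.61 and 10.63 in X376R, 8.15, 7.74 and 7.86 in PF1066R and 9.49, 9.39 and 9.62 in Parental. Its 3 lines were well apart, and the PF1066R arrays were about as far below Parental as for PMEPA1. The difference was 1.11 ± 0.12 for X376R minus Parental (2.16-fold higher) and -1.58 ± 0.12 for PF1066R minus Parental (3.00-fold lower). The second CCN2 probe gave 1.02 and -1.46. With arrays centred on the median alone the X376R minus Parental difference was 0.43. X376R exceeded PF1066R in CCN2 6.46-fold (2.69 ± 0.12).

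ID1, ID2 and ID3 encode helix-loop-helix proteins without a DNA-binding region, which pair with E proteins such as TCF3 and keep them off DNA; all 3 are direct targets of BMP and SMAD1 or SMAD5. ID3, at chr1:23557926-23559501, measured 9.66, 9.72 and 9.31 in X376R, 7.12, 6.99 and 6.95 in PF1066R and 6.49, 6.92 and 6.82 in Parental. It was 7.04-fold higher in X376R than in Parental (2.82 ± 0.13), and 5.81-fold higher than in PF1066R (2.54 ± 0.13). The PF1066R arrays lay above the Parental arrays by 0.28 ± 0.13 on the log2 scale. That difference was 0.15 without Parental array 1, the lowest of its line, and 0.07 with arrays centred on the median. It was 0.16 in the authors' log2 values, in which array 1 of each line does not hold the same values as the signals used here (rank correlation 0.943 to 0.953, against 1 for the other arrays).

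ID1, at chr20:31605289-31606510, measured 10.56, 10.91 and 10.84 in X376R, 9.69, 9.46 and 9.53 in PF1066R and 9.93, 9.75 and 9.78 in Parental. X376R was above Parental by 0.95 ± 0.12 (1.93-fold), and PF1066R minus Parental was -0.26 ± 0.12. The other ID1 probe disagreed for PF1066R. It measured 8.16, 8.37 and 7.85 in X376R, 7.82, 8.08 and 8.11 in PF1066R and 7.31, 7.03 and 6.91 in Parental. By that probe both resistant lines were higher than Parental, X376R by 1.05 and PF1066R by 0.92, and the resistant lines overlapped with a difference of 0.13. The direction of ID1 in PF1066R depends on the probe. With arrays centred on the median the first probe gave 0.29 for X376R minus Parental and -0.62 for PF1066R minus Parental.

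ID2, at chr2:8682056-8684461, had the smallest differences of the 3 ID genes. It measured 7.24, 7.48 and 7.58 in X376R, 6.68, 6.81 and 6.81 in PF1066R and 6.97, 7.05 and 6.97 in Parental. The lines did not overlap, and the differences were 0.44 ± 0.11 for X376R minus Parental, -0.22 ± 0.11 for PF1066R minus Parental and 0.67 ± 0.11 for X376R minus PF1066R. The other ID2 probe gave 0.38, -0.10 and 0.48, with PF1066R and Parental overlapping. The first probe gave 0.02 for X376R minus Parental and -0.48 for PF1066R minus Parental with arrays centred on the median.

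SMAD7 encodes the inhibitory SMAD that blocks TGF-beta receptors and is itself induced by TGF-beta and BMP; the gene lies at chr18:48919853-48950965. It measured 6.64, 6.61 and 6.57 in X376R, 6.12, 6.32 and 6.17 in PF1066R and 6.54, 6.82 and 6.73 in Parental. The X376R and Parental arrays overlapped and the PF1066R arrays were lowest. The difference was -0.09 ± 0.11 for X376R minus Parental (95% interval -0.32 to 0.14), -0.49 ± 0.11 for PF1066R minus Parental and 0.40 ± 0.11 for X376R minus PF1066R. The second SMAD7 probe gave -0.01, -0.20 and 0.19, and the lines overlapped in all 3 comparisons. Both probes were dim, and not all PF1066R arrays were above background in the second. With a smaller offset in the background correction, the first probe gave -0.81 for PF1066R minus Parental and 0.68 for X376R minus PF1066R.

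JUNB encodes an AP-1 subunit that TGF-beta induces early and that growth factor signalling through MAPK also induces; it lies at chr19:12791486-12793315. It measured 8.11, 8.49 and 8.21 in X376R, 7.58, 7.79 and 7.71 in PF1066R and 9.03, 9.14 and 8.86 in Parental. JUNB was the only one of the 9 genes with Parental above both resistant lines without overlap. It was 1.67-fold lower in X376R (-0.74 ± 0.12) and 2.49-fold lower in PF1066R (-1.32 ± 0.12), and X376R exceeded PF1066R by 0.58 ± 0.12. With arrays centred on the median the X376R minus Parental difference of JUNB was -1.34 and that of X376R minus PF1066R 0.38.

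**Figure D2:**
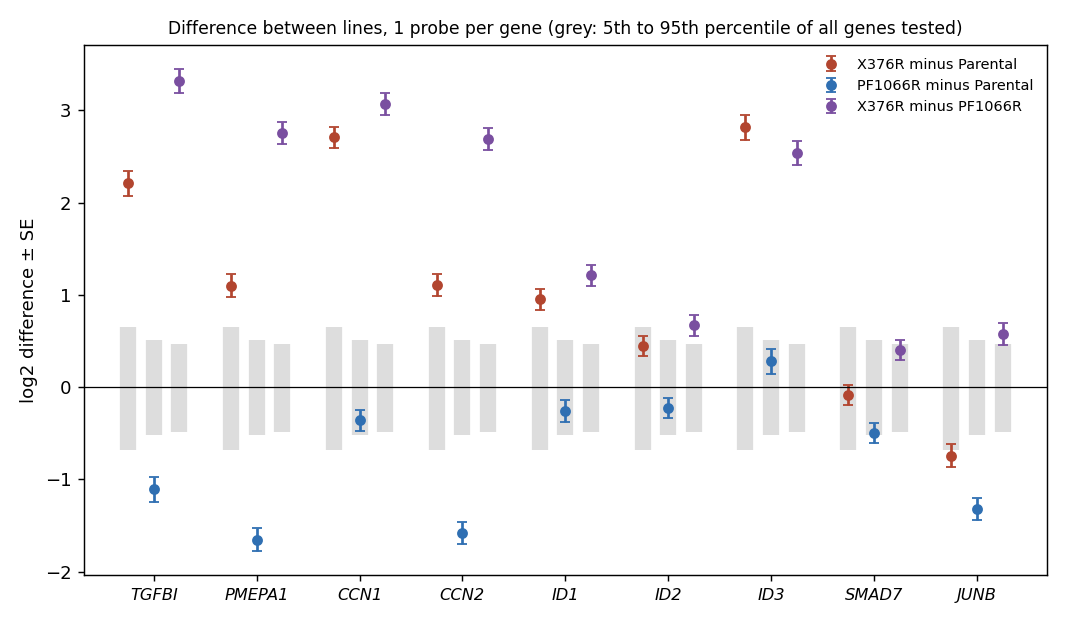
Log2 difference ± SE of the 9 genes for X376R minus Parental, PF1066R minus Parental and X376R minus PF1066R, with 1 probe per gene. The grey bars span the 5th to the 95th percentile of all 13769 genes tested; TGFBI, PMEPA1, CCN1, CCN2 and ID3 lie above 2.5 for X376R minus PF1066R.

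With 1 probe per gene, the order of the lines took 4 forms across the 9 genes. In TGFBI, PMEPA1, CCN1, CCN2, ID1 and ID2 it was X376R, Parental, PF1066R from high to low. In ID3 it was X376R, PF1066R, Parental, and in JUNB it was Parental, X376R, PF1066R. In SMAD7 X376R and Parental could not be separated and PF1066R was lowest. The second ID1 probe put PF1066R above Parental instead, and by the second ID2 and SMAD7 probes PF1066R and Parental overlapped. By the probe that stands for the gene, the arrays of the lines compared did not overlap for 8 of 9 genes in X376R against Parental (7 higher, 1 lower), beside 38.8% of all genes (18.7% higher, 20.1% lower). They did not overlap for 9 of 9 in PF1066R against Parental (1 higher, 8 lower), beside 33.7% of all genes (16.5% higher, 17.2% lower). For X376R against PF1066R it was 9 of 9, all higher, beside 29.1% of all genes (14.2% higher). The SD of a gene over the 3 arrays of a line was between 0.03 and 0.25, with a median of 0.14.

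**Figure D3:**
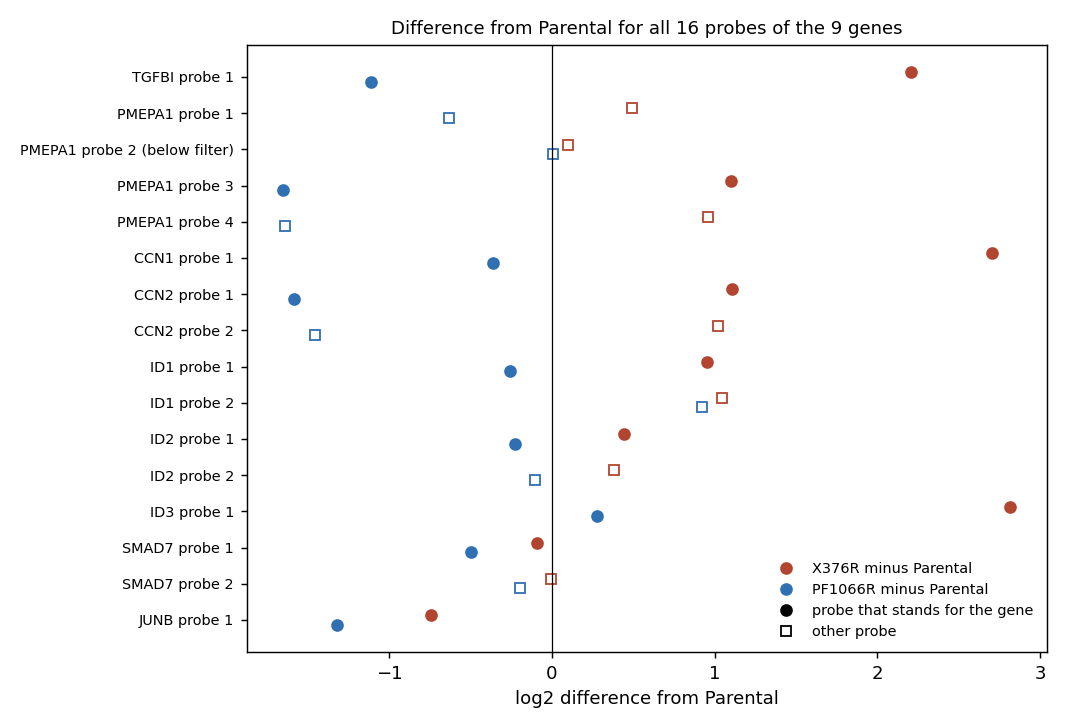
Log2 difference from Parental for all 16 probes of the 9 genes, with X376R minus Parental in red and PF1066R minus Parental in blue. Filled circles are the probes that stand for the genes and open squares the other probes; the second ID1 probe is the only one above background whose PF1066R difference has the opposite sign to that of its gene's first probe.

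The profile over the 9 arrays was compared between genes as the root mean square of the difference in log2 values, each gene taken relative to its mean in Parental. Among the 9 genes PMEPA1 and CCN2 were the closest pair, 0.22 apart, and each was the other's nearest gene of all genes tested. CCN1 and ID3 were 0.44 apart and ID1 and ID2 0.32. The nearest genes outside the group were ANXA1 (0.26), which encodes annexin A1, and LGALS1 (0.38), which encodes galectin-1, for TGFBI. For PMEPA1 the next was FSCN1 (0.40), which encodes the actin-bundling protein fascin, and for CCN2 it was ADAM19 (0.38), a membrane metalloprotease. CCN1 was nearest to H2AC20 (0.32), a histone H2A gene, and to CST6 (0.34), a cysteine protease inhibitor. ID3 was nearest to the tropomyosin gene TPM1 (0.24) and to H2AC20 (0.28). JUNB was nearest to PRAG1 (0.14) and NKD2 (0.19), the second an inhibitor of Wnt signalling. ID1, ID2 and SMAD7, whose differences were smaller, had neighbours about 0.10 away, namely PPP1R14C and DCBLD1 for ID1, TPD52L2 and GLIS3 for ID2, and CDV3 and PRRT3 for SMAD7, the last 2 at 0.09.

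The other genes of these pathways were counted from 10 lists with 170 genes, of which 120 were measured. They were tested by limma with Benjamini-Hochberg adjustment over all 13769 genes. In X376R compared with Parental 31 passed as higher and 21 as lower, which is 43.3% of the 120 beside 28% of all genes. In PF1066R compared with Parental 8 were higher and 27 lower (29.2% beside 18.5%), and in X376R compared with PF1066R 30 were higher and 7 lower (30.8% beside 16%). The lists were written with earlier results of these arrays known, so these counts describe the genes listed. Of the calls, 21 of 52, 16 of 35 and 20 of 37 in these comparisons were kept under every other way of processing the arrays that tested the gene, including the removal of each array.

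Of 17 other targets of TGF-beta measured, 9 were higher and 3 lower in X376R than in Parental, 1 was higher and 7 lower in PF1066R than in Parental, and 11 were higher and none lower in X376R than in PF1066R. Their median difference was 0.37, -0.09 and 0.54 in these comparisons. TPM1, an actin-binding tropomyosin, rose to 9.64 ± 0.07 in X376R (SD, n = 3), against 7.14 ± 0.14 in Parental (difference 2.50 ± 0.11, adjusted p = 2.8e-11), and a second TPM1 probe gave 2.47 while the third gave 0.05. TAGLN, the smooth muscle protein transgelin, was at least 3.83-fold higher in X376R than in Parental (adjusted p = 4.7e-09) and at least 3.74-fold higher than in PF1066R (adjusted p = 6.9e-09), since it was not above background on any array of those lines. Another TAGLN probe gave a difference of 0.86 from Parental. ADAM19 was at least 2.06-fold lower in PF1066R than in Parental (adjusted p = 4.1e-07), where its PF1066R arrays were below background, and 1.53-fold higher in X376R than in Parental (0.61 ± 0.11, adjusted p = 0.00031). That X376R difference was 0.15 (adjusted p = 0.41) with arrays centred on the median and 0.56 (adjusted p = 0.07) with array brightness in the model.

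Some TGF-beta targets were lower in both resistant lines. BHLHE40, a transcriptional repressor, was 2.29-fold lower in X376R (-1.20 ± 0.12, adjusted p = 1.2e-06) and 2.26-fold lower in PF1066R (-1.18 ± 0.12, adjusted p = 3.6e-06). TSC22D1, a leucine zipper protein, differed by -1.55 ± 0.13 in X376R (adjusted p = 1.5e-07) and -1.23 ± 0.13 in PF1066R (adjusted p = 5.6e-06) relative to Parental. Another TSC22D1 probe gave -2.08 and -1.59 in these comparisons, one more gave -0.94 and -0.72, and the last gave -0.03 and 0.00. TGF-beta targets were thus not all higher in X376R.

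Among other YAP targets, 15 were measured, of which 5 were higher and 2 lower in X376R than in Parental, 1 was higher and 3 lower in PF1066R than in Parental, and 7 were higher and 2 lower in X376R than in PF1066R. AXL, a receptor tyrosine kinase, rose in X376R to 7.03 ± 0.11, against 5.93 ± 0.19 in Parental (1.10 ± 0.11, adjusted p = 1.6e-06), and was above background on 1 array each of PF1066R and Parental. A second AXL probe gave 1.10. IGFBP3, a secreted binding protein of insulin-like growth factors, ran the other way and was 9.63-fold lower in X376R (-3.27 ± 0.17, adjusted p = 2.2e-10) and 4.90-fold lower in PF1066R (-2.29 ± 0.17, adjusted p = 5.3e-08) than in Parental. A second IGFBP3 probe gave -2.77 and -2.38 in these comparisons. NT5E, the ectonucleotidase CD73, was likewise lower in both, by -1.60 ± 0.11 in X376R (adjusted p = 8.8e-09) and -0.85 ± 0.11 in PF1066R (adjusted p = 3.8e-05). IGFBP3 and NT5E therefore differed in the direction opposite to CCN1 and CCN2 in X376R.

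Of 7 other BMP targets measured, 2 were higher and 1 lower in X376R, and none was higher and 1 lower in PF1066R, each relative to Parental, while 2 were higher and 1 lower in X376R than in PF1066R. The lower one was HEY1, a Notch and BMP target that encodes a transcriptional repressor. It was at least 3.41-fold lower in X376R, where it was below background (adjusted p = 8.5e-10), and 2.21-fold lower in PF1066R (-1.14 ± 0.10, adjusted p = 7.9e-07). A second HEY1 probe gave differences of -0.29 and -0.35. The homeobox genes DLX3 (0.33 ± 0.11, adjusted p = 0.028) and DLX5 (at least 1.11-fold, adjusted p = 0.016) were the higher ones in X376R, with levels near background, and neither passed with array brightness in the model (adjusted p = 0.16 and 0.22). DLX3 also lost its call without Parental array 1 (adjusted p = 0.11), Parental array 2 (adjusted p = 0.066) or X376R array 2 (adjusted p = 0.13), and DLX5 without Parental array 3 (adjusted p = 0.052). DLX3 and DLX5 were also the higher ones in X376R compared with PF1066R (0.43, adjusted p = 0.00994, and 0.32, adjusted p = 0.0288). Those calls were lost in 2 and 9 of 19 other ways of processing.

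Of the ligands and activators of TGF-beta and activin signalling 9 were measured, 3 of them higher and 2 lower in X376R, none higher and 2 lower in PF1066R, each relative to Parental, and 3 higher and 1 lower in X376R than in PF1066R. THBS1, the matrix protein thrombospondin-1 that activates latent TGF-beta and is also a YAP target, measured 8.18 ± 0.22 in X376R, 5.95 ± 0.18 in PF1066R and 5.95 ± 0.09 in Parental. It rose 4.67-fold in X376R (2.22 ± 0.13, adjusted p = 1.0e-09) and was above background on only 1 array each of the other lines. INHBE, an activin subunit that the amino acid response also induces, fell in both, by 2.02 ± 0.14 on the log2 scale in X376R (adjusted p = 6.7e-09) and by 1.68 ± 0.14 in PF1066R (adjusted p = 2.2e-07). INHBE was above background on 1 of the 3 X376R arrays, so its level there is close to the limit of the array. LTBP3, a latent TGF-beta binding protein, was 1.64-fold lower in PF1066R (-0.71 ± 0.14, adjusted p = 0.0018), and another probe gave -0.16. Of 6 BMP ligands measured, none was higher in either resistant line, and 1 was lower in X376R and 2 in PF1066R than in Parental. BMP6 was among them, at least 1.39-fold lower in X376R (adjusted p = 9.0e-05) and at least 1.44-fold lower in PF1066R (adjusted p = 0.00018), with no array of either above background. None of the 6 passed in X376R compared with PF1066R by limma, and 0 had an unadjusted p under 0.05.

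Among 10 receptors and co-receptors, 2 were higher and 2 lower in X376R and none higher and 1 lower in PF1066R than in Parental, and 2 were higher and none lower in X376R than in PF1066R. The 1 call in PF1066R was BMPR1B, a BMP receptor (-0.30, adjusted p = 0.049), which was lost in 11 of 19 other ways of processing. Of the 2 calls between the resistant lines, that of RGMA, a BMP co-receptor (0.32, adjusted p = 0.044), was lost in 13 of 19, among them the removal of any 1 of the 9 arrays (adjusted p = 0.052 to 0.14). TGFBR2, the receptor that binds TGF-beta first, was 1.55-fold higher in X376R than in Parental (0.64 ± 0.10, adjusted p = 0.00015), and a second probe gave 0.73. This was 0.19 with arrays centred on the median (adjusted p = 0.30). BMPR2, the BMP receptor of the same class, gave -0.03 ± 0.13 in X376R (adjusted p = 0.90) and -0.01 ± 0.13 in PF1066R (adjusted p = 0.98), and TGFBR1 did not pass the filter on dim probes. Of 10 SMADs and nuclear cofactors, none was higher and 2 lower in X376R, 1 was higher and 2 lower in PF1066R, each relative to Parental, and 1 was lower in X376R than in PF1066R. The higher one was SMAD5, a BMP SMAD (0.39, adjusted p = 0.029), whose call was lost in 9 of 20 other ways of processing and whose second probe gave -0.03. SMAD3, the TGF-beta SMAD that binds the CAGAC motif, was 3.05-fold lower in X376R (-1.61 ± 0.16, adjusted p = 6.8e-07) and 2.20-fold lower in PF1066R (-1.13 ± 0.16, adjusted p = 6.9e-05). SMAD3 was also the 1 gene called lower between the resistant lines (-0.47, adjusted p = 0.049), and this call was lost in 12 of 20 other ways of processing. SMAD4, shared by both branches, gave 0.03 ± 0.10 in X376R (adjusted p = 0.89) and -0.05 ± 0.10 in PF1066R (adjusted p = 0.84). SMAD4 was lower in X376R with arrays centred on the median (-0.46, adjusted p = 0.032).

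Of 13 inhibitors and antagonists measured, 2 were higher and 3 lower in X376R, none was higher and 3 lower in PF1066R, each relative to Parental, and 2 were higher and 2 lower in X376R than in PF1066R. BAMBI, a decoy receptor that blocks TGF-beta and BMP receptors and is usually induced by both, was 4.18-fold lower in X376R (-2.06 ± 0.12, adjusted p = 1.0e-09) and 2.36-fold lower in PF1066R (-1.24 ± 0.12, adjusted p = 1.3e-06) than in Parental. NBL1, a secreted BMP antagonist, was 1.92-fold lower in X376R (-0.94 ± 0.15, adjusted p = 0.00010), and a second probe gave -1.08. FSTL3, a secreted activin inhibitor, had the pattern of TGFBI, with 7.45 ± 0.20 in X376R, 6.14 ± 0.23 in PF1066R and 6.65 ± 0.13 in Parental. It was higher in X376R than in Parental (0.79 ± 0.13, adjusted p = 0.00023) and lower in PF1066R than in Parental (-0.51 ± 0.13, adjusted p = 0.012). The PF1066R difference no longer passed without Parental array 3 (-0.47, adjusted p = 0.056) or PF1066R array 3 (-0.40, adjusted p = 0.072), nor with array brightness in the model (adjusted p = 0.11). The X376R difference was 0.43 (adjusted p = 0.055) with arrays centred on the median.

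Of 21 Hippo kinases, YAP and TEAD factors, 5 were higher and 3 lower in X376R, 4 higher and 3 lower in PF1066R, each relative to Parental, and 1 higher and none lower in X376R than in PF1066R. YAP1 gave 0.03 ± 0.14 in X376R (adjusted p = 0.92), -0.05 ± 0.14 in PF1066R (adjusted p = 0.89) and 0.08 ± 0.14 between the resistant lines (adjusted p = 0.80). WWTR1 was dim and gave 0.22 ± 0.10 (adjusted p = 0.13), 0.14 ± 0.10 (adjusted p = 0.43) and 0.08 ± 0.10 (adjusted p = 0.68). The DNA-binding partner TEAD2 was lower in both lines, by -0.61 ± 0.13 in X376R (adjusted p = 0.0022) and -0.57 ± 0.13 in PF1066R (adjusted p = 0.0060), as was the Hippo kinase gene STK4, by -0.72 ± 0.14 (adjusted p = 0.00083) and -0.69 ± 0.14 (adjusted p = 0.0021). For STK4 in X376R the adjusted p was 0.11 with array brightness in the model. The related TEAD4 was higher in both, by 0.42 in X376R (adjusted p = 0.0138) and 0.41 in PF1066R (adjusted p = 0.0252). These TEAD4 calls were lost in 5 and 7 of 20 other ways of processing. In X376R and PF1066R, AMOT was higher (0.86, adjusted p = 0.000186, and 0.54, adjusted p = 0.0125) and SAV1 lower (-0.80, adjusted p = 0.00106, and -0.49, adjusted p = 0.0405). Their PF1066R calls were lost in 3 and 9 of 20. The LIM protein AJUBA, which restrains the Hippo kinase LATS, was the 1 gene higher in X376R than in PF1066R (0.94 ± 0.13, adjusted p = 5.4e-05), and its 2 other probes gave 0.24 and 0.30. These are transcript levels, and phosphorylation or nuclear entry of YAP and SMADs was not measured.

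Of 12 relatives and binding partners of the 9 genes, 3 were higher and 2 lower in X376R, 1 higher and 3 lower in PF1066R, each relative to Parental, and 2 higher and none lower in X376R than in PF1066R. The AP-1 genes did not follow JUNB as a group. JUN was higher in both lines, by 1.13 ± 0.15 in X376R (adjusted p = 2.2e-05) and 0.86 ± 0.15 in PF1066R (adjusted p = 0.00064), and with arrays centred on the median by 0.58 and 0.53 (adjusted p = 0.074 and 0.15). FOSB was higher in X376R (0.58 ± 0.15, adjusted p = 0.0073) and 2.13-fold lower in PF1066R (-1.09 ± 0.15, adjusted p = 7.0e-05) than in Parental. Its X376R difference was 0.01 with arrays centred on the median and 0.71 with an adjusted p of 0.10 with array brightness in the model. FOSL1 was lower in both, by at least 1.57-fold in X376R (adjusted p = 7.0e-05) and by -0.67 ± 0.11 in PF1066R (adjusted p = 0.00033). With a smaller offset in the background correction the differences of dim genes were larger, for example 1.85 for AXL in X376R and -1.09 for FOSL1 in PF1066R. Centring arrays on the median made lower genes lower still, for example -1.81 for BHLHE40, -1.50 for NBL1, -1.29 for STK4 and -1.19 for TEAD2 in X376R.

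**Figure D4:**
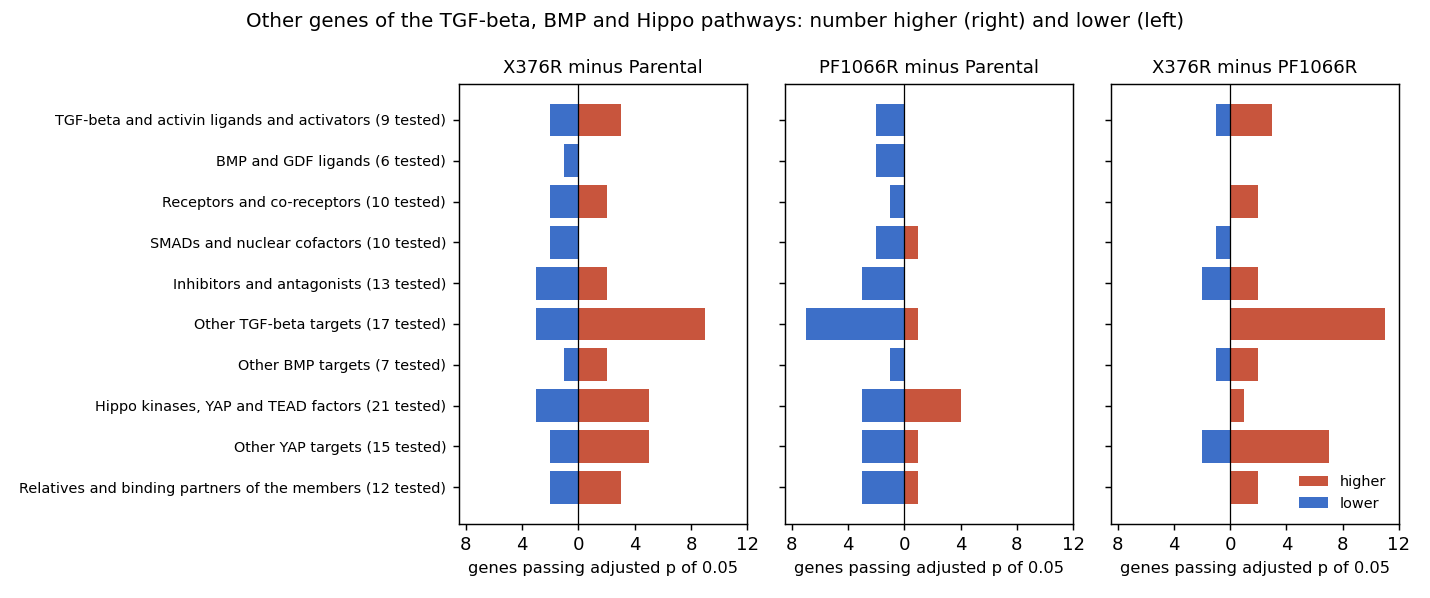
Number of other pathway genes that passed an adjusted p of 0.05 in each of 10 lists, higher to the right of 0 and lower to the left, for X376R minus Parental, PF1066R minus Parental and X376R minus PF1066R. The list of other TGF-beta targets holds 9 higher and 3 lower, 1 higher and 7 lower, and 11 higher and 0 lower in these comparisons.

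The share of probes above background was 36% to 51.8% on the X376R arrays, 39.4% to 59.3% on the PF1066R arrays and 41.9% to 65.9% on the Parental arrays, and the mean probe signal was 173 ± 9.11, 201 ± 30.3 and 255 ± 38 units (SD, n = 3) before normalization. Array brightness was entered in the model as the mean over all probes of the log2 signal before background correction. With it as a covariate, the X376R minus PF1066R differences of the 9 genes ranged from 0.38 for SMAD7 to 3.27 for TGFBI, against 0.40 and 3.32 without it. The differences from Parental moved more, for example to -0.21 for CCN1 and -1.37 for CCN2 in PF1066R, and in X376R to 0.78 for PMEPA1, 0.30 ± 0.19 for ID2, 1.44 for CCN2 and -1.01 for JUNB. All 8 epithelial markers were measured, and 8 were above background on all X376R and all PF1066R arrays and 7 on all Parental arrays. Their log2 summed level was 13.22 to 13.51 in X376R, 13.25 to 13.39 in PF1066R and 13.19 to 13.44 in Parental. Of these, 2 were higher and 2 lower in X376R and 2 higher and 1 lower in PF1066R than in Parental. NKX2-1, the lung lineage factor, was higher in both (1.19 ± 0.12, adjusted p = 9.5e-07, and 0.71 ± 0.12, adjusted p = 0.00043), keratin KRT7 was higher in X376R (1.08 ± 0.15, adjusted p = 3.3e-05) and NAPSA, the aspartic protease napsin A, in PF1066R (0.47 ± 0.12, adjusted p = 0.011). NAPSA was above background on only 1 Parental array. CDH1, the epithelial cadherin, was lower in both (-0.87 ± 0.12, adjusted p = 3.05e-05, and -0.41 ± 0.12, adjusted p = 0.023), and keratin KRT18 was lower in X376R (-0.52 ± 0.14, adjusted p = 0.0096). A second KRT18 probe gave -0.03 for X376R minus Parental, so that difference depends on the probe. Fibroblast markers, several of which are TGF-beta targets too, had a log2 summed level of 9.15 to 9.22 in X376R, 8.84 to 8.89 in PF1066R and 8.76 to 8.84 in Parental, with 6 of 8 measured. Of these, 2 (COL1A1 and LUM) were higher in X376R and 1 (COL3A1) in PF1066R. COL1A2, DCN and FAP were close to background in every line. LUM (6.53 in X376R, 6.02 in Parental) and COL3A1 (6.25 in PF1066R, 5.90 in Parental) were near background too, with no Parental array above it. Of 2 endothelial markers measured, CDH5 was higher in both resistant lines (2.21 and 1.38), and PECAM1 did not pass, with summed levels of 8.34 to 8.51 in X376R, 7.67 to 8.09 in PF1066R and 7.04 to 7.10 in Parental. With 1 probe per gene, none of 4 leukocyte markers passed against Parental by limma (at an unadjusted p under 0.05, 1 in X376R and 2 in PF1066R), and CD14 was lower in X376R than in PF1066R (-0.36 ± 0.11, adjusted p = 0.037). Their summed levels were 8.62 to 8.78 in X376R, 8.77 to 8.85 in PF1066R and 8.48 to 8.78 in Parental. For CD68 the direction in X376R depends on the probe. The probe that stands for CD68 measured 7.60 in X376R and 7.31 in Parental. Its other probes gave -1.30 and -0.19 for X376R minus Parental, and -1.09 and -0.08 for X376R minus PF1066R. The part of brightness and of these marker genes in the differences of the 9 genes was not tested beyond the values given.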

How the data were processed

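Total RNA of 9 H3122 samples was measured on Illumina bead arrays. RNA was extracted with Trizol and RNeasy columns and labelled as biotinylated cRNA, per the labels' protocols. The deposited intensity table gives linear signals by probe and array, and the sources used here do not say how beads were summarized. The authors also deposited normalized log2 values, and R 2.15 is listed per the submitters' processing notes. The intensities were used and the log2 table was an alternative only. In the log2 table, array 1 of each line departs from the signals used here (rank correlation 0.943 to 0.953, against 1 for the others).

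In R 4.3.3 with limma 3.58.1, signals were corrected with normexp (offset 50), 92 external control probes (taken as such from knowledge of the platform) were removed, and arrays were quantile-normalized and put on the log2 scale. A probe had to exceed the brightest control probe on at least 3 of 9 arrays. This passed 26814 of 47322 probes with a value, 18575 of them with a gene name, and the probe with the highest mean stood for each of 13769 genes. In the platform annotation 30113 probes have 1 symbol, 8 have several and 17202 have none. The fit over all 9 arrays had 1 mean per line (lmFit, eBayes), with Benjamini-Hochberg adjusted p under 0.05. The median SE of a log2 difference was 0.118, and 3 arrays a line limit the precision. Arrays of one line correlated with r of 0.98 to 0.989 and arrays of different lines with 0.929 to 0.963. A bound ("at least") sets the bright line's mean against the dim line's arrays. Each dim array enters with the higher of its background limit and the gene's own value, and the mean of these is used.

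The 9 genes, the 10 pathway lists and the 4 marker lists were chosen with earlier results of these data known. Named are the 9 genes with all probes, the 2 nearest genes of each, and from each list genes among the up to 3 with the largest called differences per comparison and non-overlapping arrays, plus TGFBR1, TGFBR2, BMPR2, SMAD3, SMAD4, YAP1 and WWTR1. TEAD4 and the marker genes were named after their values were seen, and some genes the rule gives are left out. Some genes of the lists are not reported here. Replicate numbers were not treated as pairs, since the labels do not say what the number marks. Deviations of same-numbered arrays correlated with r of -0.0479 to 0.00358 for number 1 and 0.0291 to 0.221 for numbers 2 and 3. A fit with a replicate block is among the alternatives. On simulated data with 13769 genes, changes of 1 on the log2 scale were recovered for 81% of genes in X376R minus Parental and 87% in X376R minus PF1066R. The simulation changed only 100 genes by 1 and 100 by 0.5, in X376R alone, with lines of equal brightness. Many more genes were called on the real arrays, so these shares do not give the recovery in the real comparisons. Alternatives were other background, normalization, filter, probe and model choices and leaving out each array.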

Additional observations from a re-analysis of the deposited data

Results flagged for a closer look

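For 6 of the 9 genes the 3 X376R arrays lay on one side of the 3 Parental arrays and the 3 PF1066R arrays on the other. The log2 difference X376R minus PF1066R was 3.32 for TGFBI, 2.75 for PMEPA1, 3.07 for CCN1, 2.69 for CCN2, 1.21 for ID1 and 0.67 for ID2. That the effects of the 2 resistant lines differ was not tested for these genes, which had been chosen with their values known, and neither the second ID1 probe nor the second ID2 probe showed the split.

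The other pathway genes with opposite calls in the resistant lines, each relative to Parental, were FSTL3, ADAM19, FOSB and FOS. Their X376R minus PF1066R difference, which is the difference between the effects of the 2 lines, was 1.31 for FSTL3 (adjusted p = 2.1e-06 by limma), 1.84 for ADAM19 (adjusted p = 1.5e-09), 1.68 for FOSB (adjusted p = 4.2e-07) and 1.15 for FOS (adjusted p = 2.2e-05). FOS, an AP-1 subunit, was lower in PF1066R than in Parental by -0.48 (adjusted p = 0.026), which no longer passed without Parental array 1 (-0.37), PF1066R array 1 (-0.39) or PF1066R array 3 (-0.49), with adjusted p of 0.13, 0.13 and 0.064, nor with a smaller offset in the background correction (adjusted p = 0.055) or array brightness in the model (adjusted p = 0.054). In X376R it was higher than in Parental by 0.67 (adjusted p = 0.0020), against 0.02 (adjusted p = 0.95) with arrays centred on the median and 0.45 (adjusted p = 0.32) with array brightness in the model.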

How the results depend on the processing

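Among the differences of the 9 genes under the alternatives run, only that of ID1 in PF1066R minus Parental changed sign, with the mean of all probes of a gene (0.33). The number of the 9 genes called was 5 to 8 for PF1066R minus Parental, 6 to 8 for X376R minus Parental and 7 to 9 for X376R minus PF1066R. The 8 in PF1066R, the 6 and the 7 were reached with arrays centred on the median. With that centring 2439, 4586 and 979 of all 13769 genes were called in these comparisons, against 2541, 3860 and 2204 in the main fit. The 5 was reached without background correction, where 2412 of all genes were called for PF1066R minus Parental. With array brightness as a covariate, 1254 genes were called for PF1066R minus Parental (2541 without it), 1395 for X376R minus Parental (3860), and other pathway genes called were 20 (35) and 26 (52). With the filter at all 9 arrays, 52 pathway genes were tested instead of 120, of which 29 were called for X376R minus Parental and 19 for X376R minus PF1066R (37 otherwise). With arrays centred on the median, 979 genes were called for X376R minus PF1066R (2204 otherwise) and 20 pathway genes, ASAP1 (-0.50) and SMAD4 (-0.46) turned negative for X376R minus Parental, and the median of all genes shifted to -0.19 for X376R minus Parental, -0.12 for PF1066R minus Parental and -0.06 for X376R minus PF1066R. The share of called genes that were higher then was 8.46%, 8.82% and 28.2% (49.5%, 49.2% and 49.5% otherwise), and of called pathway genes 30.6%, 0% and 75% (59.6%, 22.9% and 81.1%). Leaving out 1 array at a time gave 3101 to 3845, 1865 to 2777 and 1606 to 2192 genes for X376R minus Parental, PF1066R minus Parental and X376R minus PF1066R, and 47 to 53, 26 to 37 and 31 to 40 pathway genes. The replicate block gave 4173, 2879 and 2469 genes (3860, 2541 and 2204 without it) and 53, 35 and 38 pathway genes (52, 35 and 37). For 5 of 9 arrays, the array of another line with the most similar deviations had the same number. Dim probes (WWTR1, SMAD7, DLX3, DLX5, THBS1 outside X376R) limit what can be measured. In simulation with few changed genes and lines of equal brightness, a change of 0.5 was recovered for 48% of the 100 genes given it in X376R minus Parental and 40% in X376R minus PF1066R. The cause of these shifts was not tested.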
